A study of Mus musculus with 6 samples.

Results

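Type I interferon response genes were followed in AI4 cells, CD8 T cells with a transgenic receptor that recognises beta cells, sorted from mouse pancreas. Donor mice were of the Rip-B7xAI4 genotype, resistant to type 1 diabetes, or of the AI4 genotype, which developed it. All mice had the C57BL/6.H2g7/g7 background, and those of both groups carried AI4 cells. In Rip-B7x the rat insulin promoter drives B7x, a B7 family protein that inhibits T cells, in beta cells, and an effect of B7x cannot be told apart from one of the disease state. Pancreata were pooled before sorting on an anti-CD8 antibody and an H-2Db tetramer of the MimA2 peptide, with 3 arrays per genotype, called biological replicates in the labels. The sources used here give neither the age of the mice nor how many went into a pool, so the p-values measure only the spread between these samples. The genes were chosen as a list of 32 symbols by function, with earlier results of these data known. A gene was measured where a probe was annotated with that symbol alone, and 30 of the 32 genes were found among 19929 genes in all. Isg15, whose probe is also annotated with Gm9706, and Ifi44 were not analysed here.

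Type I interferons bind the receptor made of Ifnar1 and Ifnar2 and activate the kinases Jak1 and Tyk2. A complex that holds Stat2 and Irf9 then binds interferon-stimulated response elements in the promoters of many antiviral genes. In CD8 T cells the response restrains virus replication and shapes expansion and effector function, and in human and mouse islets an interferon signature is known from early autoimmune diabetes. Macrophages and dendritic cells express many of the same genes at high levels.

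The response element could be looked for in RefSeq promoter windows of assembly GRCm38.p6, each reaching from 250 bases before to 50 bases after an annotated start. Windows were listed for 22 of the 32 genes. GAAA, any 2 bases and GAAA again, read on either strand, was found in a window of 10 of these 22 genes (45.5%), against 3.99% of all 27025 genes in the table. The letters TTCNNNGAA, the core of the gamma-activated site, were found for 7 of the 22 (31.8%), against 9.55% of all genes. In Bst2 a match of each kind overlapped, and neighbouring matches of the response element overlapped each other in Oas1a, Bst2 and Isg15. A match is a description of the letters only. The promoters of Ifit3 and Rsad2 are shown over the 250 bases before the start because these genes differed by more than 1 log2 unit between the groups and because their values set the arrays apart. The other windows, of 30 bases, are shown to compare the element between genes of different array patterns. Capitals mark the matched letters of the response element or, where it lies on the opposite strand, their reverse complement.
Ifit3 (chr19:34583279-34583528, plus strand): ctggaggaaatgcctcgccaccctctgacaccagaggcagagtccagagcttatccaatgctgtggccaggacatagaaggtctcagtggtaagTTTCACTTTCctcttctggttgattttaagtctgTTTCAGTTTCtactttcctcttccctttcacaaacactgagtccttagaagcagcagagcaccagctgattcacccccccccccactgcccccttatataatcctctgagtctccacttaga
Rsad2 (chr12:26456453-26456702, minus strand): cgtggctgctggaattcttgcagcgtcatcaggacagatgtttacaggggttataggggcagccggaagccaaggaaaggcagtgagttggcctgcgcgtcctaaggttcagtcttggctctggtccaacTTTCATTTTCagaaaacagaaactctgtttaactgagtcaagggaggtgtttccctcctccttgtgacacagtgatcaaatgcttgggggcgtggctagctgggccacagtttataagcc
Ifit1 (chr19:34640784-34640813, plus strand): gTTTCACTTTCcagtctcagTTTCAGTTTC
Ifih1 (chr2:62646206-62646235, minus strand): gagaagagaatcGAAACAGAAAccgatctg
Eif2ak2 (chr17:78882535-78882564, minus strand): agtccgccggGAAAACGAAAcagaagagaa
Oas1a (chr5:120907523-120907552, minus strand): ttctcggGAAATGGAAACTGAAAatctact
Bst2 (chr8:71537580-71537609, minus strand): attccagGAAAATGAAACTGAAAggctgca

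Ifit1 and Ifit3 each held 2 matches on the opposite strand, with the letters TTTCACTTTC and TTTCAGTTTC in the same order in both. The matches of Ifih1 and Eif2ak2 lay after the annotated start, 33 to 42 and 19 to 28 bases into the transcript, and those of the other printed genes before it. Of the genes whose groups did not overlap, 2 of 3 with a window held the response element, and of those high on Rip-B7xAI4 replicates 1 and 3 but not on 2, 5 of 9 did.

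**Figure D1:**
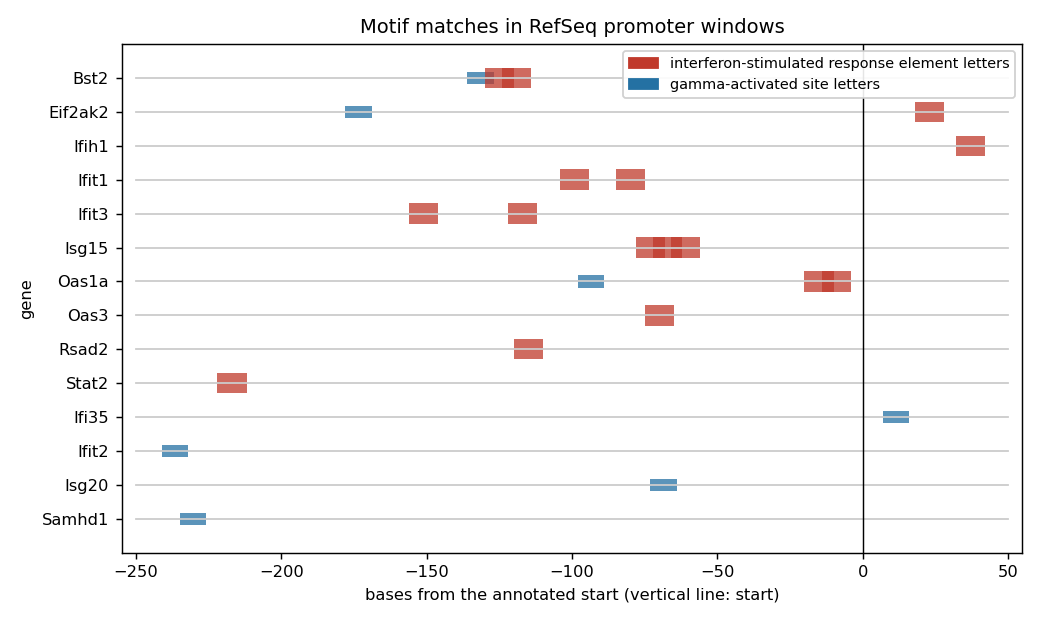
Positions of the response element (red) and the gamma-activated site (blue) in the promoter windows of the 14 listed genes with a match, in bases from the annotated start. Red blocks lie between positions -156 and -5, except in Stat2, at -222 to -213, and in Ifih1 and Eif2ak2, after the start.

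No type I interferon response gene passed an adjusted p of 0.05. The deposited values were read as log2, and all levels and differences below are log2 values, the differences being Rip-B7xAI4 minus AI4. Genes in the dimmest 30% by mean level were set aside, which left 26 of the 30 measured members among 13950 tested genes. By limma, with Benjamini-Hochberg adjustment over all tested genes, 0 of the 26 were called, where 0.00717% of all tested genes were, that is Ccl3 alone, a chemokine gene outside the list. At an unadjusted limma p under 0.05, 6 members were higher and 0 were lower in Rip-B7xAI4, against 5.56% and 3.17% of all tested genes. These were Ifi27l2a, Ifih1, Xaf1, Eif2ak2, Ifit3 and Isg20. Leaving out Rip-B7xAI4 replicate 1 gave 2 such higher members, against 3.42% of all tested genes in that fit, and leaving out Rip-B7xAI4 replicate 2 gave 10, against 5.83%. The number was 3 when AI4 replicate 1 was left out, against 4.87%, and 2 when AI4 replicate 2 was, against 3.95%. Of the 26 members, 23 had a positive difference, against 39% of all tested genes. The median difference of the members was 0.35, beside -0.10 for all tested genes, and members ranged from -0.20 (Oasl2) to 2.31 (Ifi27l2a). An exact permutation test of 3 arrays against 3 cannot give a two-sided p below 0.1.

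**Figure D2:**
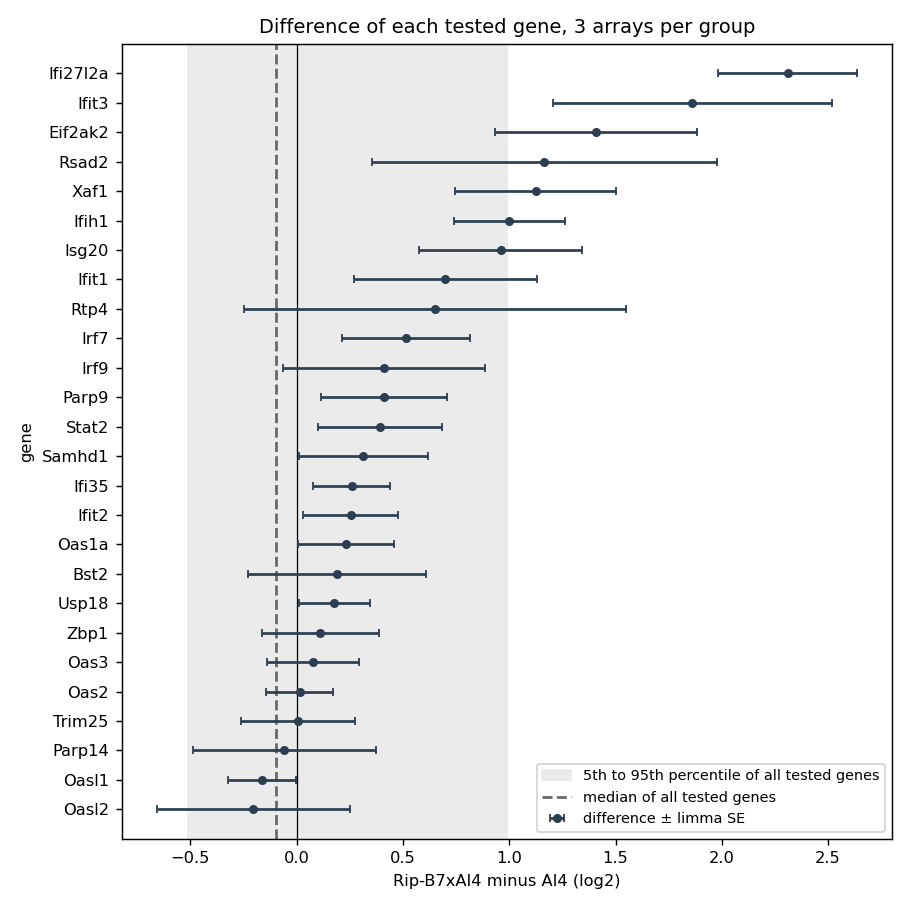
Log2 difference, Rip-B7xAI4 minus AI4, of each tested member with its limma standard error (3 arrays per group), beside the median (dashed) and the band from the 5th to the 95th percentile of all tested genes (-0.51 to 0.99). The points of Ifi27l2a, Ifit3, Eif2ak2, Rsad2, Xaf1 and Ifih1 lie beyond the upper edge of the band, and the other points lie inside it.

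The arrays of the Rip-B7xAI4 group differed from each other in these genes. The mean over the 26 tested members was 7.76, 6.95 and 7.61 on Rip-B7xAI4 replicates 1, 2 and 3, against 6.86, 6.75 and 7.08 on AI4 replicates 1, 2 and 3. Replicates 1 and 3 thus lay above all AI4 arrays, and replicate 2 lay inside the AI4 range. Rip-B7xAI4 replicate 1 exceeded all 3 AI4 arrays for 21 of the 26 members and replicate 3 for 19, where 26.6% and 18.4% of all tested genes did so. Replicate 2 exceeded them for 6 of the 26 (23.1%), a share near the 19.7% of all tested genes. It lay within their range for 11 members and below all of them for 9 of the 26, a share near the 32.4% of all tested genes. It was the lowest Rip-B7xAI4 array for 21 of the 26, against 26.3% of all tested genes. For 12 members (46.2%) replicates 1 and 3 both lay above the AI4 arrays and replicate 2 did not, a pattern shown by 4.39% of all tested genes. The groups were fully apart, with Rip-B7xAI4 higher, for 4 members, against 5.99% of all tested genes, and with Rip-B7xAI4 lower for 0 members, against 11.9%. The first of these counts was 16 without Rip-B7xAI4 replicate 2, against 10.4% of all tested genes in that fit, and 7 without AI4 replicate 3, against 12%. With fewer arrays more genes have groups that do not overlap.

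Markers of other cells moved across the arrays in the same way. Of 26 tested markers of macrophages, monocytes and dendritic cells, 20 showed the pattern of high replicates 1 and 3 without replicate 2. Their mean was 8.69, 6.16 and 8.57 on Rip-B7xAI4 replicates 1, 2 and 3, against 5.91 to 6.52 in AI4. Lyz2, the lysozyme of macrophages, stood at 11.40, 5.59 and 9.64 in Rip-B7xAI4, against 7.36, 4.73 and 7.57 in AI4. Csf1r, the receptor for macrophage growth factor, stood at 7.11, 5.49 and 8.81, against 5.77 to 6.09 in AI4. C1qb, a complement subunit of macrophages, stood at 8.12, 5.53 and 8.98, against 5.85 to 6.27 in AI4. H2-Ab1, a chain of the MHC class II molecules of antigen-presenting cells, stood at 9.01, 6.71 and 9.07, against 6.65 to 6.90 in AI4. These 4 genes were high on replicates 1 and 3 and within or below the AI4 range on replicate 2. Cd68 was above AI4 on all 3 Rip-B7xAI4 arrays, at 9.17, 7.35 and 9.07, against 6.21 to 6.49 in AI4. The 8 neutrophil markers averaged 8.78, 5.74 and 8.004, against 5.57 to 5.68 in AI4, and S100a8 stood at 10.46, 6.01 and 9.46, against 4.71 to 5.24 in AI4. Summed on the linear scale and written as log2, the 28 measured of 29 macrophage, monocyte and dendritic markers came to 14.03, 11.40 and 14.02 in Rip-B7xAI4, against 11.07 to 12.02 in AI4. Of 5 natural killer cell markers, 3 were too dim to test and Tyrobp is also in the macrophage, monocyte and dendritic list. The other, Eomes, a factor that activated CD8 T cells also express, was highest on replicate 2, at 7.84, 8.88 and 7.03 in Rip-B7xAI4, against 6.61, 6.56 and 7.44 in AI4. For all members named below, the part of these cells in the differences was not tested. In sorted bulk RNA, fewer cells of a type and less RNA per cell cannot be told apart.

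Markers of the sorted cell were high on every array. The 10 tested CD8 T cell markers averaged 10.14, 10.43 and 9.83 on Rip-B7xAI4 replicates 1, 2 and 3, against 9.82 to 10.38 in AI4. Array medians over all probes were 5.94 to 6.10. AI4 replicate 1 was the lowest of the 6 arrays for 5 of these 10 markers and the highest for 2. Over all tested genes it was also the array least like the others, with correlations of 0.72 to 0.80. The other pairs of arrays had correlations of 0.80 to 0.91. Cd3e stood at 10.65 to 11.19 in Rip-B7xAI4 and 9.11 to 10.59 in AI4, with AI4 replicate 1 the lowest. Cd8a stood at 9.71, 10.42 and 9.21 on Rip-B7xAI4 replicates 1, 2 and 3, against 10.10 to 10.89 in AI4. Cd8b1 stood at 9.53, 10.73 and 10.05, against 10.48 to 11.49 in AI4. In both Cd8 genes replicates 1 and 3 lay below all AI4 arrays, and replicate 2 lay within their range. Plasmacytoid dendritic cells, which make large amounts of type I interferon, had 6 tested markers with means of 6.52, 6.42 and 7.24 on Rip-B7xAI4 replicates 1, 2 and 3, against 6.51 to 6.64 in AI4. Siglech stood at 5.73 and 5.65 on Rip-B7xAI4 replicates 1 and 2, against 5.83 to 5.98 in AI4, and replicate 3 lay 1.02 above the highest AI4 array. Tcf4, a factor of these cells, stood at 7.67, 6.74 and 7.66 in Rip-B7xAI4, against 6.49 to 7.25 in AI4. B cell markers averaged 6.72, 5.80 and 6.90, against 5.84 to 6.29 in AI4, and Cd79a, a chain of the B cell receptor, was highest on AI4 replicate 3. Ins2 and Cpa1, markers of beta and acinar cells, lay between 5.67 and 6.42 on all arrays.

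**Figure D3:**
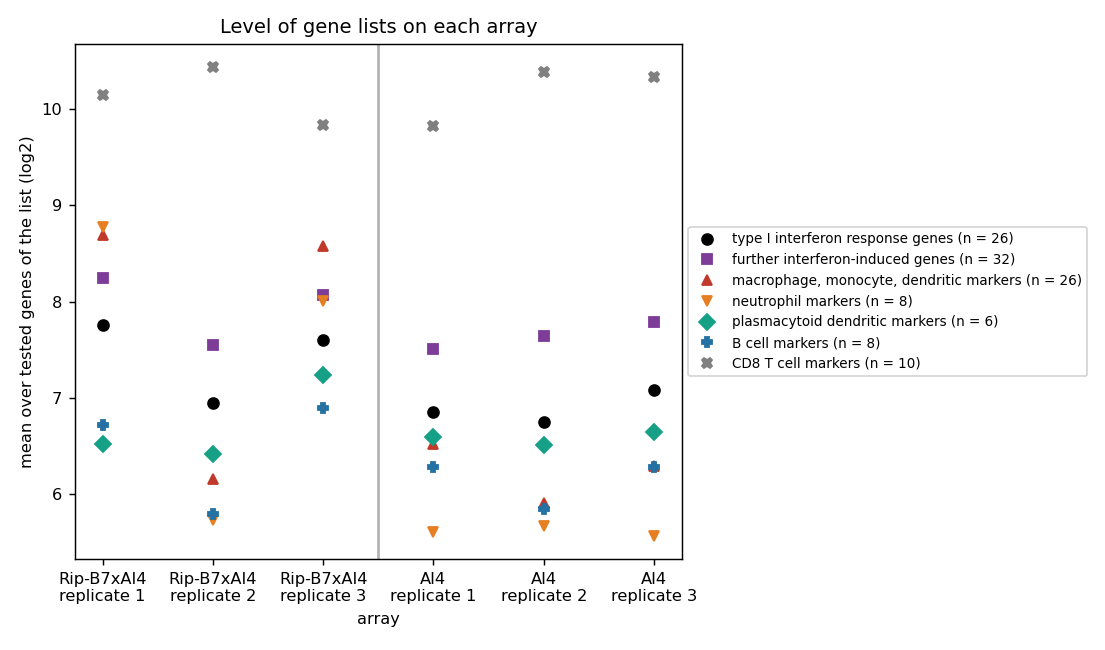
Mean log2 level of the tested genes of each list on each array, Rip-B7xAI4 left and AI4 right of the line, with the number of genes in the key. The type I interferon response genes (black) stand at 7.76 and 7.61 on Rip-B7xAI4 replicates 1 and 3 and at 6.95 or less on replicate 2 and on 2 of the AI4 arrays, and the markers of macrophages, monocytes and dendritic cells and of neutrophils drop at the same array.

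Ifi27l2a stood apart from the other members. It encodes a small hydrophobic membrane protein of the interferon-induced ISG12 family. It stood at 9.09, 9.30 and 9.88 on Rip-B7xAI4 replicates 1, 2 and 3, against 6.84, 6.78 and 7.71 on AI4 replicates 1, 2 and 3. The groups did not overlap, and replicate 2, where macrophage markers were at 6.16, lay 1.59 above the highest AI4 array. The difference was 2.31 ± 0.33 (limma SE), larger than the spread within groups (SD 0.41 in Rip-B7xAI4 and 0.52 in AI4), but its adjusted p was 0.157. Over all alternatives the adjusted p ran from 0.0393, with array weights, to 0.875, without Rip-B7xAI4 replicates 1 and 3 together. With replicate 2 as the lone Rip-B7xAI4 array the difference was 2.19. Some markers of other cells were also above all AI4 arrays on replicate 2, in shares near the 19.7% of all tested genes. They were 5 of 26 (19.2%) of macrophages, monocytes and dendritic cells, among them Itgax by 0.87 and Cd68 by 0.86. Of the neutrophil markers they were 2 of 8 (25%), S100a8 by 0.77 and S100a9 by 0.39. Their part in the difference of Ifi27l2a was not tested.

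Of the other members described by their induction rather than by an enzyme activity, Xaf1, Rtp4 and Ifi35 had positive differences. Xaf1, which antagonises the caspase inhibitor XIAP, stood at 8.58, 7.99 and 8.52 in Rip-B7xAI4, against 7.94, 6.51 and 7.25 in AI4. The groups did not overlap, but replicate 2 exceeded the highest AI4 array by only 0.04 and lay 0.24 below it after quantile normalization. The difference of Xaf1 was 1.12 ± 0.38 (SE), with an adjusted p of 0.512 by limma. Rtp4, an interferon-induced protein that dampens the antiviral response, stood at 8.75, 6.62 and 9.27, against 5.97, 8.68 and 8.03 in AI4. Its spread within each group (SD 1.41 and 1.42) exceeded its difference of 0.65 ± 0.90. Ifi35, a leucine zipper protein that pairs with Nmi, stood at 7.30, 6.83 and 7.07, against 6.75 to 6.84 in AI4, with replicate 2 inside the AI4 range.

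Among the factors that carry or limit the signal, none of 4 separated the groups. Stat2, a subunit that activates transcription in the complex with Irf9, stood at 7.52, 6.51 and 7.28 in Rip-B7xAI4, against 6.59, 6.62 and 6.93 in AI4. Irf9, which gives the complex its DNA contact, stood at 8.43, 7.99 and 6.76, against 7.62, 6.70 and 7.63 in AI4. Irf9 was thus raised on replicates 1 and 2 and not on replicate 3, unlike most other members. Irf7, the factor that amplifies interferon alpha synthesis, stood at 6.96, 7.06 and 7.69, against 6.48, 6.46 and 7.23 in AI4, and AI4 replicate 3 lay above Rip-B7xAI4 replicates 1 and 2. Usp18, a protease that removes Isg15 from proteins and blocks signalling at the receptor, stood at 6.32, 6.52 and 6.45, against 6.19, 6.42 and 6.15 in AI4. Its replicate 2 was the highest of all arrays, by 0.10 over the highest AI4 array. Differences were 0.39 ± 0.29 (SE) for Stat2, 0.41 ± 0.48 for Irf9, 0.51 ± 0.30 for Irf7 and 0.18 ± 0.17 for Usp18.

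Sensors of viral nucleic acid and enzymes switched on by double-stranded RNA had 8 tested members, with 6 positive and 2 negative differences. Ifih1, the cytosolic RNA sensor MDA5 and a gene with human variants linked to type 1 diabetes, stood at 7.08, 6.54 and 7.21 in Rip-B7xAI4, against 6.30, 5.64 and 5.89 in AI4. Eif2ak2, the kinase PKR that halts translation, stood at 7.39, 6.05 and 6.13, against 4.86, 4.59 and 5.89 in AI4. In both genes the groups did not overlap, and replicate 2 exceeded the highest AI4 array by 0.24 for Ifih1 and 0.16 for Eif2ak2. The difference was 1.00 ± 0.26 (SE) for Ifih1, with an adjusted p of 0.433 by limma. It was 1.41 ± 0.48 for Eif2ak2, with an adjusted p of 0.512. Zbp1, a sensor of Z-form nucleic acid that can start necroptosis, stood at 9.44, 8.60 and 9.24, against 9.22, 9.05 and 8.67 in AI4. Its replicate 2 was the lowest of the 6 arrays. Its difference of 0.11 ± 0.28 turned to -0.11 after quantile normalization.

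The Oas family, which makes the second messenger that activates RNase L, was nearly level between the groups. Oas1a stood at 6.86, 6.16 and 6.75 in Rip-B7xAI4, against 6.28, 6.35 and 6.45 in AI4, with replicate 2 the lowest of the arrays. Oas2 stood at 6.68 to 6.88 in Rip-B7xAI4 and 6.68 to 6.83 in AI4. Oas3 stood at 6.17 to 6.76 in Rip-B7xAI4 and 6.16 to 6.49 in AI4. Differences were 0.23 ± 0.23 (SE) for Oas1a, 0.01 ± 0.16 for Oas2, where quantile normalization gave a value just below 0, and 0.08 ± 0.22 for Oas3. Both Oas-like genes had negative differences. Oasl1, which in mice restrains translation of Irf7, stood at 6.51, 6.58 and 6.71 in Rip-B7xAI4, against 6.90, 6.72 and 6.68 in AI4, a difference of -0.16 ± 0.16. Oasl2 stood at 7.98, 6.42 and 7.63, against 7.98, 7.69 and 6.98 in AI4, and replicate 2 was the lowest of the 6, with a difference of -0.20 ± 0.45. Oas1a belongs to a cluster of near-identical copies in the mouse, so its probe signal is uncertain.

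Genes that bind or degrade RNA had all 4 differences above 0, and none had its replicate 2 above the AI4 arrays. Ifit3, one of the Ifit proteins that capture foreign RNA ends, stood at 8.89, 7.53 and 8.40 in Rip-B7xAI4, against 5.64, 5.73 and 7.86 in AI4. AI4 replicate 3 lay more than 2 above the other AI4 arrays and above Rip-B7xAI4 replicate 2, so the groups overlapped through these arrays. The difference of Ifit3 was 1.86 ± 0.66 (SE), with an adjusted p of 0.53 by limma, and its probe may also bind the near-identical Ifit3b. Ifit1, which binds uncapped and incompletely methylated RNA, stood at 7.30, 5.66 and 6.26, against 5.34, 5.68 and 6.11 in AI4. Ifit2 stood at 6.45, 5.74 and 6.21, against 5.75, 5.91 and 5.98 in AI4. Replicate 2 was at the AI4 level in Ifit1 and just below all AI4 arrays in Ifit2. Isg20, an exonuclease that degrades viral RNA, stood at 8.35, 6.89 and 8.09, against 6.83, 6.65 and 6.97 in AI4. Differences were 0.70 ± 0.43 for Ifit1, 0.25 ± 0.22 for Ifit2 and 0.96 ± 0.38 for Isg20, whose AI4 arrays differed little (SD 0.16).

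**Figure D4:**
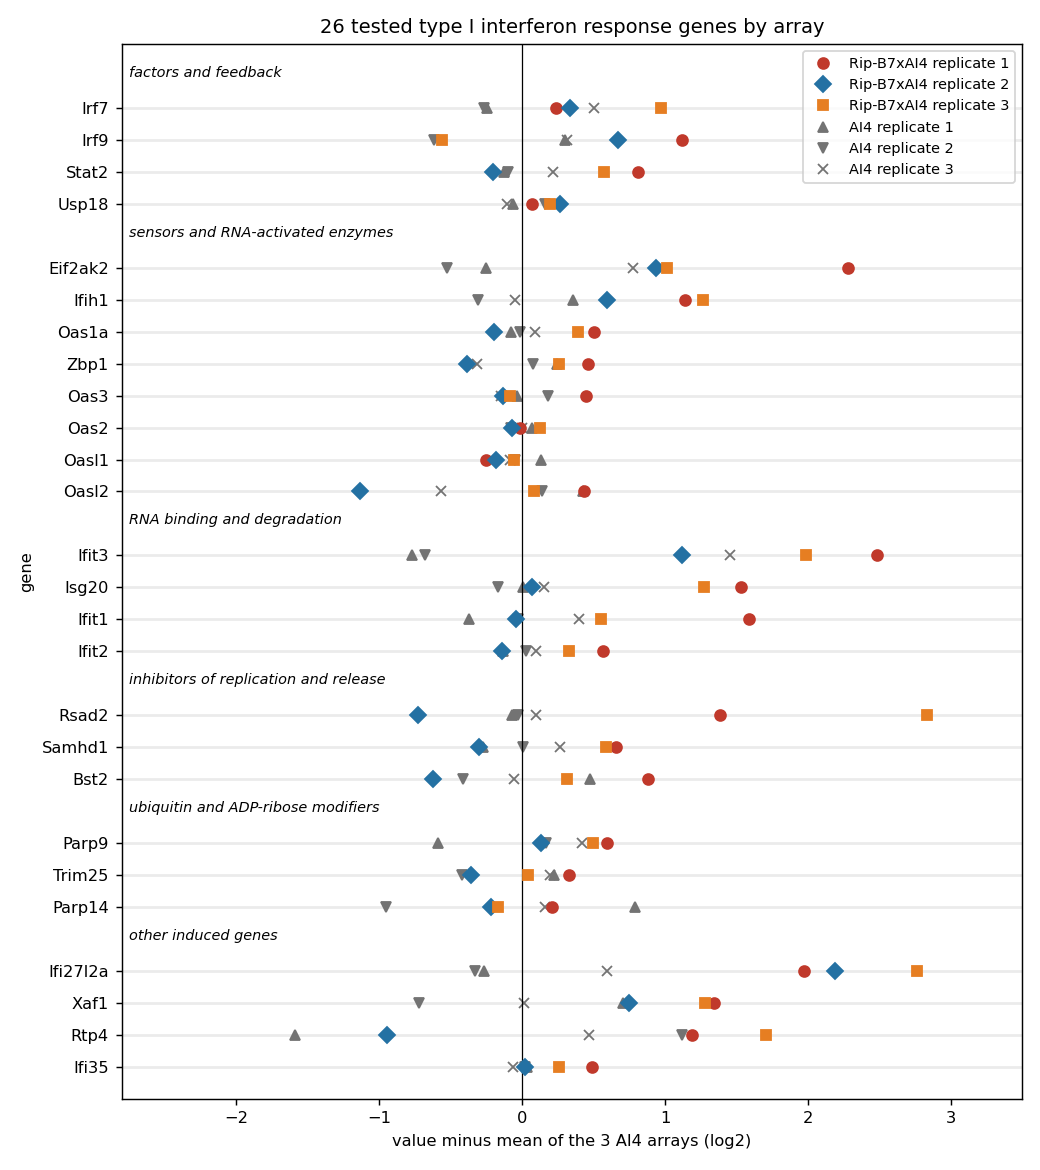
Each tested member on each array as its log2 value minus the mean of the 3 AI4 arrays, grouped by role, with Rip-B7xAI4 replicates in colour and AI4 replicates in grey. Replicate 2 (blue) stands with the coloured points in Ifi27l2a and among or below the grey points in most other genes, as in Rsad2 and Rtp4.

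Inhibitors of virus replication and release included the member with the largest spread among Rip-B7xAI4 arrays (SD 1.79), Rsad2. Rsad2, the radical enzyme viperin that makes a chain-terminating nucleotide, stood at 7.18, 5.06 and 8.62 in Rip-B7xAI4, against 5.72, 5.76 and 5.89 in AI4. Replicates 1 and 3 lay well above the AI4 arrays, which had an SD of 0.09, and replicate 2 lay below all of them. Its difference was therefore 1.16 ± 0.81 (SE), with replicates 1 and 3 averaging 2.11 above the AI4 mean and replicate 2 lying 0.73 below it. Samhd1, a hydrolase of nucleotides that starves reverse transcription, stood at 11.03, 10.08 and 10.96, against 10.11, 10.39 and 10.64 in AI4. Bst2, the tetherin that holds budding virus and also a surface marker of plasmacytoid dendritic cells, stood at 8.32, 6.82 and 7.76, against 7.92, 7.03 and 7.38 in AI4. In Samhd1 and Bst2 as well, replicate 2 was the lowest of the 6 arrays. Their differences were 0.31 ± 0.30 and 0.19 ± 0.42.

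The dim members had mean levels below 5.471, the limit for testing. Cmpk2, a mitochondrial nucleotide kinase gene next to Rsad2, was at 4.62 to 5.16 in Rip-B7xAI4 and 4.64 to 4.83 in AI4. Mx1, a GTPase against influenza virus whose gene is defective in C57BL/6 mice, was at 4.11 to 4.89 in Rip-B7xAI4 and 4.32 to 4.66 in AI4. Mx2 was at 4.22 to 4.82 in Rip-B7xAI4 and 4.47 to 5.02 in AI4. The groups overlapped in each of these genes. Dhx58, the sensor cofactor LGP2, was at 4.81 to 5.31 in Rip-B7xAI4 and 5.11 to 5.58 in AI4, and it was not tested either.

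Of 3 tested genes for enzymes that attach ubiquitin or ADP-ribose, or their partners, 2 had a positive and 1 a negative difference. Parp9, a partner of the ubiquitin ligase Dtx3l in the interferon response, stood at 7.15, 6.69 and 7.05 in Rip-B7xAI4, against 5.97, 6.72 and 6.97 in AI4, a difference of 0.41 ± 0.30 (SE). Parp14, an ADP-ribosyltransferase, stood at 7.80, 7.37 and 7.42, against 8.38, 6.64 and 7.74 in AI4, so the spread among AI4 arrays (SD 0.88) was far larger than the difference of -0.06. That difference was 0.01 after median centring. Trim25, the ubiquitin ligase that activates the sensor RIG-I, stood at 7.58, 6.89 and 7.29, against 7.47, 6.82 and 7.44 in AI4. Its difference of less than 0.01 turned to -0.13 after quantile normalization.

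Of the 26 tested members, 6 (23.1%) stayed raised above all AI4 arrays on Rip-B7xAI4 replicate 2, a share near the 19.7% of all tested genes. They were Ifi27l2a, Irf9, Ifih1, Eif2ak2, Usp18 and Xaf1, with margins of 1.59, 0.36, 0.24, 0.16, 0.10 and 0.04. All but Ifi27l2a had margins smaller than the range of their own AI4 arrays. After quantile normalization 5 remained, since Xaf1 dropped out, against 17.5% of all tested genes. After median centring 7 members exceeded the AI4 arrays, since Ifi35 joined by 0.07, against 23.7% of all tested genes. Ifit3 and Irf7 lay above the AI4 mean on replicate 2, by 1.12 and 0.34, but not above AI4 replicate 3. At the other end, Oasl2, Rtp4, Rsad2 and Bst2 lay 1.13, 0.95, 0.73 and 0.62 below the AI4 mean on replicate 2. Replicate 2 lay above the AI4 mean for 11 of the 26 tested members, a share near the 39.2% of all tested genes. With replicate 2 as the only Rip-B7xAI4 array Eif2ak2 was too dim to test. In that fit 10 of 25 tested members had a positive difference and the median was -0.14, beside -0.10 for all tested genes.

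**Figure D5:**
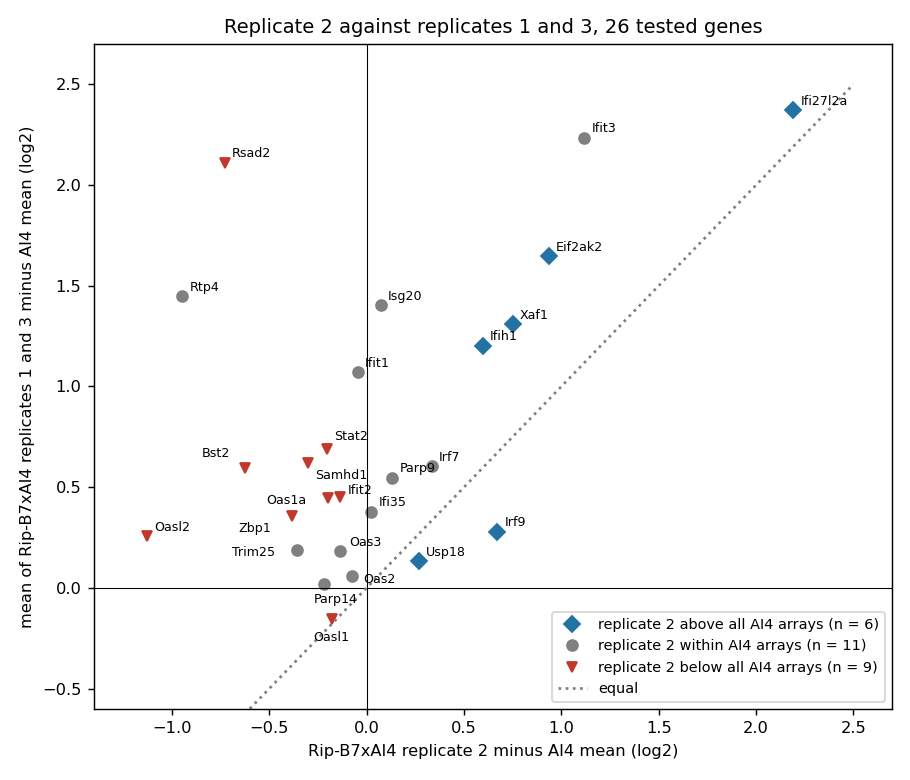
Rip-B7xAI4 replicate 2 (horizontal) against the mean of replicates 1 and 3 (vertical), each minus the AI4 mean in log2, for the 26 tested members. Ifi27l2a lies at 2.19 and 2.37 near the line of equality, while Rsad2 and Rtp4 lie at 2.11 and 1.45 on the vertical axis and below 0 on the horizontal one.

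Upstream of these genes, ligand and receptor levels did not separate the groups. Of 7 tested genes of ligands, receptors and the Jak-Stat step, 0 had an unadjusted limma p under 0.05. Over all tested genes 5.56% were higher and 3.17% lower at that limit. Of the 7 differences 2 were positive, against 39% of all tested genes. Ifnb1 was too dim to test, at 3.97 to 4.60 in Rip-B7xAI4 and 4.31 to 4.47 in AI4. Ifnar1 stood at 7.47, 7.14 and 6.77 in Rip-B7xAI4, against 7.57, 6.82 and 8.37 in AI4. Ifnar2 was even on the Rip-B7xAI4 arrays at 9.04, 9.07 and 9.12 and uneven in AI4 at 5.10, 8.04 and 9.32, with AI4 replicate 1 the low array. Irf1, a factor that interferon gamma induces strongly, stood at 8.58, 6.72 and 6.68, against 10.15, 7.99 and 7.70 in AI4, a difference of -1.28 ± 0.78 (SE). Tyk2 differed by 0.22 ± 0.17.

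Of 12 tested genes of nucleic acid sensing, 1 was higher at an unadjusted limma p under 0.05, where 5.56% of all tested genes were. This was Irf8, a factor of dendritic cells that activated T cells also express, at 6.95, 7.01 and 8.12 in Rip-B7xAI4, against 6.67, 6.17 and 6.08 in AI4. The groups did not overlap, with a difference of 1.05 ± 0.36 (SE) and an adjusted p of 0.513 by limma. Myd88, the adaptor of Toll-like receptors, differed by 1.29 ± 0.63 (SE), Tlr3 by 0.59 ± 0.50 and Ddx58, which encodes RIG-I, by 0.57 ± 0.45.

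A further list of 32 tested interferon-induced genes had a smaller median difference than the 26 tested members. Its median difference was 0.18, with 19 positive differences, against 39% of all tested genes. At an unadjusted limma p under 0.05, 2 genes were higher and 1 lower, shares near the 5.56% and 3.17% of all tested genes. All Rip-B7xAI4 arrays lay above AI4 for 1 gene, Ifi203, against 5.99% of all tested genes. They lay below AI4 for 3, Epsti1, Tor3a and Slfn1, against 11.9%. Replicates 1 and 3 without replicate 2 lay above AI4 for 9 of the 32 (28.1%), against 4.39% of all tested genes. Replicate 2 did for 4 (12.5%), against 19.7%. Ifitm1, a membrane protein that blocks virus entry, stood at 9.99, 7.68 and 9.63 in Rip-B7xAI4, against 7.32, 7.07 and 7.86 in AI4. Epsti1 went the other way, at 9.61, 9.57 and 9.60 in Rip-B7xAI4, against 10.12, 9.93 and 10.26 in AI4, a difference of -0.51 ± 0.16 (SE) with an adjusted p of 0.505 by limma. Nt5c3, a nucleotidase, differed by 1.02 ± 0.43 and Tor3a by -0.43 ± 0.19.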

How the data were processed

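Total RNA of 6 sorted cell pools was hybridised to single-colour Affymetrix arrays. The software was Affymetrix Expression Console, per the submitters' processing notes, with version and algorithm not given in the sources used here. Each probe has 1 value per array as normalized and deposited by the authors, read here as log2 from its range (2.29 to 13.61) and not changed. Of 28325 probes, 21760 had 1 symbol in the platform annotation, 1621 several and 4944 none. For each gene the probe with the highest mean over the 6 arrays was kept, and each member had 1 such probe. Genes with a mean below 5.471 were not tested. Groups came from the sample titles. Limma 3.58.1 in R 4.3.3 fitted 1 term for the group (two-sided tests, Benjamini-Hochberg adjustment over 13950 genes) and was tested on simulated data. The number of arrays limits the precision.

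Members and lists were chosen with earlier results of these data known. Every member is reported, and of each other pathway list up to 4 tested genes with the smallest p, with a set of receptor, ligand and marker genes that is always named. Vtcn1, which encodes B7x, is expressed by beta cells in this model, and its T cell values (6.13 to 6.33 in Rip-B7xAI4, 5.92 to 6.28 in AI4) do not check the labels. Promoter motifs were searched as exact letters on both strands. The alternatives were a block for the replicate number, arrays left out, array weights, quantile normalization or median centring, testing all genes or the brighter 50%, averaging probes and robust eBayes with a trend.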

Additional observations from a re-analysis of the deposited data

How the results depend on the processing

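Of 386 member differences refitted under the alternatives, 348 kept their sign and their side of the threshold, and 12 of the 26 members kept their sign in every fit made. Leaving out 1 array gave 0 to 23 genes past an adjusted p of 0.05 over all tested genes, namely 23 when Rip-B7xAI4 replicate 2 was left out, 2 when AI4 replicate 1 was and 0 for each of the other arrays, against 1 with all arrays. It gave 2 to 10 members higher at an unadjusted limma p under 0.05, where 3.42% to 6.83% of all tested genes were. All Rip-B7xAI4 arrays lay above AI4 for 4 to 16 members, against 7.99% to 12.3% of all tested genes. Replicate 2 lay above AI4 for 6 to 9 members, against 19.5% to 28.4%. The median member difference then ran from 0.16 to 0.57. Over these fits Bst2 ran from -0.15 to 0.60, Oas2 from -0.0417 to 0.0578, Oas3 from -0.11 to 0.18, Oasl2 from -0.52 to 0.26, Parp14 from -0.53 to 0.34, Rtp4 from -0.14 to 1.45, Trim25 from -0.21 to 0.19 and Zbp1 from -0.063 to 0.36. With Rip-B7xAI4 replicates 1 and 3 left out together, replicate 2 is taken to vary as the AI4 samples do and Eif2ak2 was too dim to test. In this fit the median was -0.14, beside -0.10 for all tested genes. The sign was then turned for Bst2 (-0.62), Ifit1 (-0.045), Ifit2 (-0.14), Oas1a (-0.20), Oas2 (-0.0727), Oas3 (-0.14), Rsad2 (-0.73), Rtp4 (-0.95), Samhd1 (-0.30), Stat2 (-0.20), Trim25 (-0.36) and Zbp1 (-0.38). With array weights 38 genes passed, Ifi27l2a among them with 2.41 and an adjusted p of 0.0393, and Oas3 (-0.13), Parp14 (0.40), Rtp4 (-0.77), Samhd1 (-0.0016) and Zbp1 (-0.14) changed sign. So did Oas2 (-0.0022), Trim25 (-0.13) and Zbp1 (-0.11) after quantile normalization and Parp14 (0.0088) after median centring. The cause of these changes was not tested, and the fits that left arrays out also had fewer arrays. Of genes with an unadjusted p under 0.05, 63.7% were higher in Rip-B7xAI4, against 75% after median centring and 54.1% after quantile normalization. With the replicate number as a block 0 genes passed. In that fit 6 members were higher at an unadjusted limma p under 0.05, against 5.53% of all tested genes. Same-numbered arrays had correlations of -0.08, 0.06 and -0.22 between their deviations from the group means. Differently numbered arrays had -0.10 to 0.20. With 3 arrays per group, these values cannot decide whether the numbers pair the samples, and the labels do not say. The planned pseudocounts for linear values were not run because the values were read as log2.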

Other observations

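Genes that interferon gamma induces had 7 tested members, all with a positive difference, against 39% of all tested genes. Of the 7, 0 had an unadjusted p under 0.05 by limma, where 5.56% of all tested genes were higher and 3.17% lower. Iigp1, a GTPase against intracellular parasites, stood at 7.21, 5.54 and 7.29 in Rip-B7xAI4, against 5.64, 5.71 and 5.35 in AI4. Cxcl9, a chemokine for activated T cells, stood at 6.33, 5.69 and 8.94, against 6.10, 6.35 and 5.95 in AI4. Gbp3 differed by 0.66 ± 0.39 (SE) and Irgm1 by 0.34 ± 0.50.

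Ifitm3, which blocks fusion of viruses in endosomes, was chosen after its values were seen for its spread. It stood at 11.63, 6.63 and 11.59 on Rip-B7xAI4 replicates 1, 2 and 3, against 5.76, 9.16 and 6.54 on AI4 replicates 1, 2 and 3. AI4 replicate 2 was the high array of its group for Ifitm3. Macrophage, monocyte and dendritic markers averaged 5.91 on that array, the lowest of the 6. The part of these cells in the values of Ifitm3 was not tested. The difference of 2.80 ± 1.51 (SE) had an adjusted p of 0.582 by limma.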
